A study of Rosa hybrid cultivar with 39 samples.

Results

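In petals of cut roses held in salicylic acid (SA) or silver nitrate (AgNO3), 70 genes had another leading transcript than in water (H2O), while the expression summed over all their transcripts stayed within 1.5-fold. The genes were chosen from these same values. A gene counted as a switch if it had at least 2 deposited transcript rows, a summed FPKM of at least 10 in the treatment and in H2O, a ratio of the sums below 1.5 in either direction, a different row with the highest FPKM, and a row whose share of the sum shifted by at least 30 percentage points. FPKM is a count of sequenced fragments corrected for transcript length and library size. The rule was met by 60 genes in SA and 63 genes in AgNO3, of which 53 met it in both. These 70 genes stand among 5094 identifiers with several rows and 30208 identifiers in all.

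Most plant genes with introns can give several transcripts from 1 locus, through alternative splicing, alternative starts of transcription or alternative ends. The products can differ in the protein they encode, in how long the RNA lasts or in how well it is translated, and an early stop codon often sends an RNA to decay. In plants the choice of splice site is known to respond to light, temperature, stress and hormones. SA is the hormone best known for defence against pathogens. Silver ions block the ethylene receptors and are used to keep cut flowers from ageing. A sum over the transcripts of a gene hides a change of this kind, because one product can replace another at a steady total.

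The flowers were of the hybrid tea rose 'Samantha', cut at opening stage 2, and RNA came from their outer petals. Each of 13 conditions had 3 replicates, and each replicate was a pool of flowers of this single cultivar. Stems stood for 24 h in 100 µM SA, 80 µM AgNO3, 50 µM jasmonic acid (JA), 5.0 µM of a brassinosteroid (BR), 100 µM abscisic acid (ABA), 80 µM gibberellic acid (GA3), 100 µM 2,4-D, 100 µM 6-BA, 100 µM NAA or deionized water (H2O). NAA and 2,4-D are synthetic auxins and 6-BA is a cytokinin. Other flowers were kept for 24 h in a gas atmosphere, with 2 µL per L of 1-MCP, a gas that blocks ethylene perception, 10 µL per L of ethylene, or air alone (ET-CK). The values deposited for ethylene equal those of ET-CK in all 38170 rows, so ethylene was not analysed here.

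Each of the remaining 12 conditions is given as 1 average FPKM per row. The spread between replicates is therefore unknown, no difference could be tested, and the values below are descriptions. The rows of a gene carry its identifier and locus but no transcript name, length or structure, so that rows are called here by their place in the list, and what distinguishes them as RNAs cannot be said. The identifiers are not paired with gene names, and the label petal could not be checked against marker genes. Cufflinks divides reads shared by overlapping transcripts by a statistical estimate. In H2O, 2196 rows had a value above 0 and under 1e-06 FPKM, and in the other conditions between 1866 and 2302 rows did.

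In SA, 882 genes with several rows reached the minimum of the sums and stayed below the limit of their ratio, and 60 of them, or 6.80%, met the whole rule. Another row led in 86 of the 882 genes, and a share shifted by at least 30 points in 107. In AgNO3, 893 genes reached the same stage and 63, or 7.05%, met the rule, with another leading row in 85 and a large shift in 103. Of the 949 genes that reached this stage in either treatment, the 70 switch genes make up 7.38%. The SA and AgNO3 comparisons share the H2O average, so their overlap of 53 genes, 88.3% of the SA genes and 84.1% of the AgNO3 genes, is not independent evidence of a common response. In the text below, the water-leading row of a gene is its highest row in H2O, and the treatment-leading row is the highest in SA or, for genes chosen in AgNO3 alone, in AgNO3. In 52 of the 53 genes the same row led in both treatments, which the rule fixes for the 37 genes with 2 rows. Of the 16 with more rows, 15 had the same leading row. Several of these 16, such as LOC112170538, had only 2 rows that reached 1 FPKM in any condition. For them the rule in effect fixes the leading row too, so nothing is read from this count.

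The largest shift averaged over both treatments was that of LOC112170538 (NC_037093.1, 64437303 to 64446374, 'Old Blush' genome RchiOBHm-V2). Its row 3 had 40.7 FPKM in SA and 47.9 FPKM in AgNO3, against 8.82 FPKM in H2O. Its row 1 had 5.15 FPKM in SA and 2.53 FPKM in AgNO3, against 31.9 FPKM in H2O. The sum of the rows was 45.9 FPKM in SA and 50.5 FPKM in AgNO3, against 40.7 FPKM in H2O, so the 2 rows had exchanged places within a similar total. In the conditions that did not choose the gene, row 3 had 28.4 FPKM in GA3, 27.9 in BR, 29.4 in NAA, 21.2 in JA, 16.7 in 2,4-D, 11.15 in ABA, 11.17 in 6-BA, 29.3 in 1-MCP and 40.9 in ET-CK. Row 1 was highest in ABA with 49.8 FPKM. Thus SA and AgNO3 lay at one end and H2O near the other, which the choice of the gene largely sets. ABA and 6-BA lay beside H2O, and row 3 in ET-CK was as high as in SA.

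LOC112179039 (NC_037094.1, 458254 to 466943) had nearly the same shift, 67.1 points in SA and 73.3 points in AgNO3. Its row 1 had 22.3 FPKM in SA and 20.1 FPKM in AgNO3, against 2.93 FPKM in H2O, and its row 2 had 4.54 FPKM in SA and 2.43 FPKM in AgNO3, against 15.4 FPKM in H2O. The sum in SA, 1.46 times that in H2O, was close to the limit of the rule. Row 2 led in all of the remaining conditions except GA3 and BR, and was highest in 6-BA with 26.3 FPKM.

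LOC112201953 (NC_037092.1, 35429110 to 35434390) had the largest single shift, 75.0 points in SA. Row 3 carried 4.37% of its sum in SA and 30.2% in AgNO3, against 79.4% in H2O, and row 4 had 8.45 FPKM in SA and 5.24 FPKM in AgNO3, against 2.315 FPKM in H2O. Its sums were low, with 13.4 FPKM in SA and 12.7 FPKM in AgNO3, against 11.6 FPKM in H2O, and they were divided among 5 rows. Row 4 took a still larger part in GA3, with 90.0%, and in BR, with 90.4%.

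LOC112173729 (NC_037093.1, 44228744 to 44233087) showed the exchange in its simplest form, with 2 rows. Row 1 had 18.2 FPKM in SA and 17.7 FPKM in AgNO3, against 4.41 FPKM in H2O. Row 2 had 2.90 FPKM in SA and 2.37 FPKM in AgNO3, against 12.2 FPKM in H2O. The share of row 1 was 61.3% in GA3, 54.6% in BR, 46.0% in NAA, 44.2% in JA, 33.5% in 2,4-D, 7.46% in ABA, 17.1% in 6-BA, 35.0% in 1-MCP and 49.2% in ET-CK. Row 1 therefore led in SA, AgNO3, GA3 and BR, and row 2 in the other conditions.

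**Figure D1:**
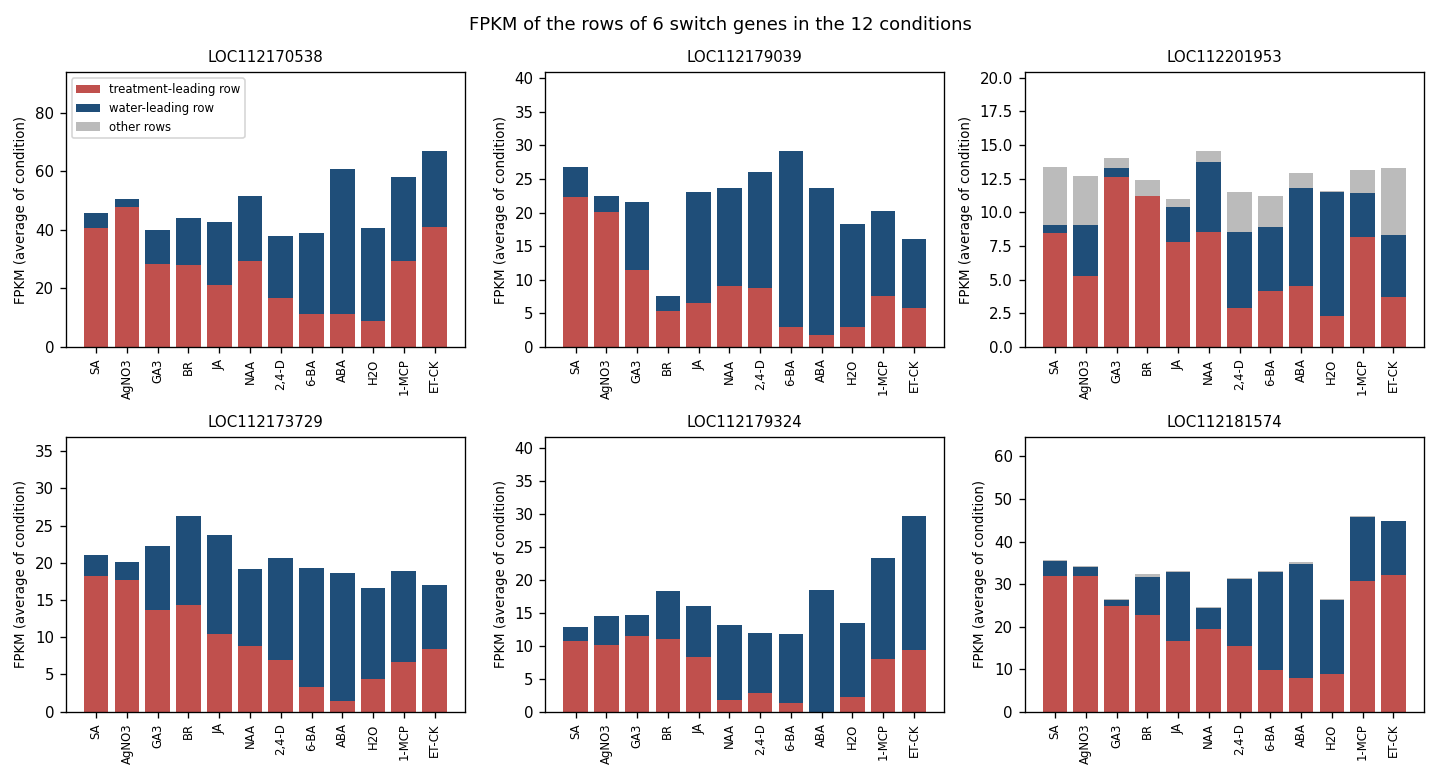
Average FPKM of the rows of the 6 genes with the largest mean shift, stacked by condition, with the treatment-leading row in red, the water-leading row in blue and further rows in grey. In LOC112170538 the red part reaches 40.7 FPKM in SA and 47.9 FPKM in AgNO3 but 8.82 FPKM in H2O, and in ABA the blue part reaches 49.8 FPKM.

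In several genes the water-leading row was nearly absent after the treatments. In LOC112190371 (NC_037088.1, 1418725 to 1469554) it had 0.604 FPKM in SA and 0.00389 FPKM in AgNO3, against 53.3 FPKM in H2O. The treatment-leading row of this gene had 94.5 FPKM in SA and 73.4 FPKM in AgNO3, against 39.6 FPKM in H2O. In LOC112177146 (NC_037094.1, 30814211 to 30944520) the water-leading row had 0.0156 FPKM in SA and 0.348 FPKM in AgNO3, against 31.5 FPKM in H2O. The first of these loci carries 2 identifiers and the second carries 5. The water-leading row of LOC112193487 (NC_037090.1, 15695514 to 15703748), whose locus is not shared, had 0.0115 FPKM in SA and 0.0179 FPKM in AgNO3, against 6.79 FPKM in H2O. Its other row was the nearly absent one in ABA, with 0.0788 FPKM. In all, the water-leading row was below 1 FPKM in 6 genes in SA, 6 in AgNO3, 4 in GA3 and 1 in BR, and it was listed at exactly 0 in no condition. No read counts are at hand to set a lower limit for such values.

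LOC112188336 (NC_037089.1, 19587301 to 19591075) kept a steady sum, with 53.6 FPKM in both SA and AgNO3, against 53.2 FPKM in H2O. Row 2 had 51.4 FPKM in SA and 52.0 FPKM in AgNO3, against 20.7 FPKM in H2O, and row 1 had 2.14 FPKM in SA and 1.57 FPKM in AgNO3, against 32.5 FPKM in H2O. It held this form in GA3, with 53.0 FPKM for row 2 and 3.00 FPKM for row 1, and the opposite form in ABA, with 16.9 FPKM for row 2 and 50.4 FPKM for row 1. LOC112188407 (NC_037089.1, 3690578 to 3694104) had a steady sum too, with 16.1 FPKM of row 1 in SA and 17.5 FPKM in AgNO3, against 4.46 FPKM in H2O. In this gene BR gave the highest row 1, 28.5 FPKM, beside 16.6 FPKM of row 2.

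LOC112164721 (NC_037092.1, 9919590 to 9925548) divided its sum among 4 rows, and all 4 differed from H2O. Row 2 had 39.4 FPKM in SA and 52.0 FPKM in AgNO3, against 17.5 FPKM in H2O. Row 4 had 0.00248 FPKM in SA and 0.500 FPKM in AgNO3, against 40.8 FPKM in H2O. Row 1 had 12.4 FPKM in SA and 4.96 FPKM in AgNO3, against 0.30 FPKM in H2O, and row 3 had 8.29 FPKM in SA and 4.28 FPKM in AgNO3, against 16.4 FPKM in H2O. LOC112171980 (NC_037093.1, 59429646 to 59434951) is the gene, of the 53 that met the rule in both treatments, in which the treatments had different leading rows. Its row 3 had 7.06 FPKM in SA and 5.10 FPKM in AgNO3, against 0.9599 FPKM in H2O, and its row 5 had 4.84 FPKM in SA and 5.36 FPKM in AgNO3, against 0.889 FPKM in H2O. In AgNO3 these rows were thus nearly equal.

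Of the other genes with the largest mean shifts, LOC112179324 shifted by 66.6 points in SA and 52.4 points in AgNO3. LOC112181574, on a locus of 5 identifiers, shifted by 56.2 points in SA and 60.4 points in AgNO3. LOC112163687, LOC112173027 and LOC112193368 shifted by 57.2, 55.7 and 53.1 points in SA, and by 59.0, 60.2 and 59.6 points in AgNO3. In each of these 5 genes the treatment-leading row carried at least 69.4% of the sum in both treatments and at most 38.6% in H2O. The most abundant switch gene was LOC112176482 (NC_037094.1, 14756861 to 14759503), with a sum of 395.3 FPKM in SA and 325.9 FPKM in AgNO3, against 340.8 FPKM in H2O. Its treatment-leading row carried 75.8% of the sum in SA and 71.0% in AgNO3, against 32.8% in H2O.

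The rule was met by 7 genes in SA alone and by 10 in AgNO3 alone, and the condition that they missed in the other treatment varied. Of the 7, 3 had a ratio of sums of at least 1.5 in AgNO3, 2 had a sum under 10 there and 2 kept the leading row of H2O. LOC112185437 (NC_037088.1, 68127610 to 68131981) shifted by 53.8 points in SA and 53.3 points in AgNO3, but its sum in AgNO3 was 1.65 times that in H2O. LOC112174841, a gene of 143.2 FPKM in SA and 152.0 FPKM in AgNO3, against 100.3 FPKM in H2O, was likewise outside the rule in AgNO3 only through its sum. LOC112173116 had the largest shift among the 7 genes of SA alone, 58.1 points, and its rows were nearly equal in AgNO3 with 5.40 and 5.62 FPKM. LOC112187980 was as evenly divided, with 7.27 FPKM and 7.28 FPKM in AgNO3, and it also missed the limit of the shift there, with 22.3 points. LOC112169913 shifted by 36.2 points in SA and 34.9 points in AgNO3, and LOC112184294 and LOC112189969 shifted by 35.9 and 31.5 points in SA and had sums of 9.69 and 9.83 FPKM in AgNO3.

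Of the 10 genes that met the rule in AgNO3 alone, 5 had a ratio of sums of at least 1.5 in SA, 3 kept the leading row of H2O and 4 shifted by under 30 points, with some genes missing more than 1 of these conditions. LOC112176333 (NC_037094.1, 29618842 to 29626252) had 0.00144 FPKM of its water-leading row in AgNO3 and 2.97 FPKM in SA, against 7.51 FPKM in H2O, and its sum in SA was 1.51 times that in H2O. LOC112195786, LOC112189169 and LOC112198246 shifted by 44.9, 46.1 and 40.8 points in SA and were outside the rule there through their sums. LOC112179599 differed more between the treatments. Its treatment-leading row carried 64.8% of the sum in AgNO3 and 42.6% in SA, against 7.79% in H2O. LOC112167008 and LOC112202323 also kept their water-leading row in SA, with 9.64 and 6.46 FPKM beside 6.88 and 6.31 FPKM of the treatment-leading row. LOC112176301, with 10 rows on a locus of 5 identifiers that it shares with another switch gene, LOC112176302, shifted by 38.3 points in AgNO3 and 26.0 points in SA.

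The limit on the shift separated genes of nearly the same value. In SA the switch genes just inside were LOC112189969 with 31.5 points and LOC112187290 with 33.8 points, and just outside were LOC112170248 with 29.1 points and LOC112187304 with 27.4 points. In AgNO3, LOC112182411 with 30.3 points and LOC112179249 with 30.5 points were inside, and LOC112195970 with 29.9 points and LOC112187304 with 29.5 points were outside.

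The rule fixes that one share goes down and another up, but not by how much each row differs. On the log2 scale of FPKM plus 1, the water-leading row of the 60 SA genes differed from H2O by a median of -1.41 (from -5.38 to -0.44) and the treatment-leading row by a median of 1.36 (from 0.42 to 2.57). At least 2-fold differences on this scale, which understates those of low rows, were seen in 45 water-leading rows and 53 treatment-leading rows, and in both rows of 40 genes. In the 63 AgNO3 genes the medians were -1.38 (from -5.76 to -0.21) and 1.39 (from 0.36 to 2.43), with 46 water-leading and 51 treatment-leading rows at least 2-fold apart and 37 genes in which both were. A lower and a higher row at once are largely what the rule selects, since it also limits the ratio of the sums, and nothing is concluded from these counts. In 2 genes in SA and 3 in AgNO3 neither row was 2-fold apart. The shift had a median of 45.7 points in SA and 47.5 points in AgNO3. The sum was higher than in H2O in 46 of the 60 genes in SA, with a median ratio of 1.13. It was higher in 43 of the 63 genes in AgNO3, with a median ratio of 1.10. These counts were not made over all compared genes, so they are not read as a trait of the switch genes. Among rows of at least 1 FPKM in every condition, the median FPKM was also higher in both treatments than in H2O. The FPKM summed over all rows was lower in both. The part of such table-wide differences in the sums of the switch genes was not tested.

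**Figure D2:**
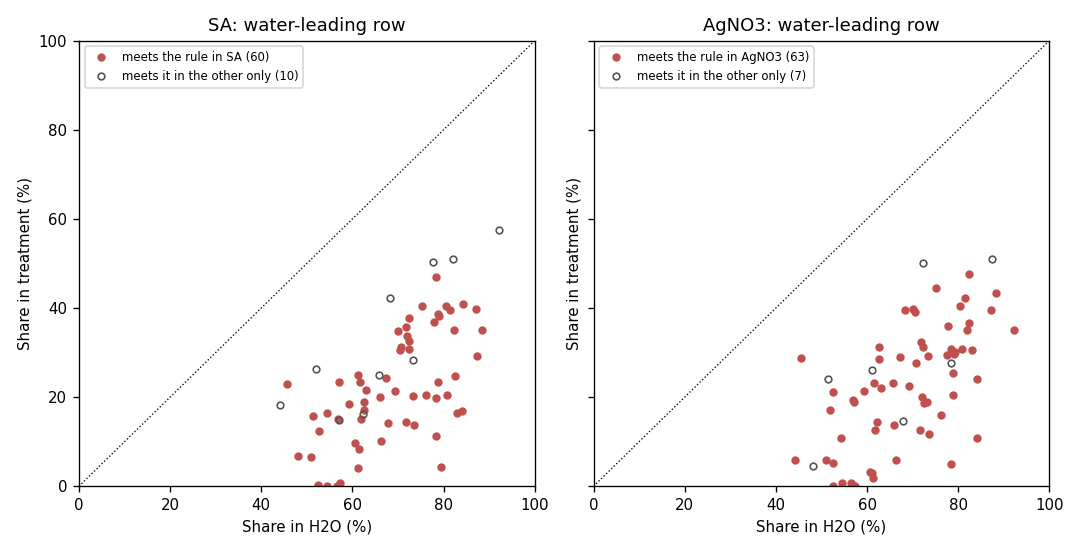
Share of summed FPKM carried by the water-leading row of each of the 70 genes, in SA (left) and AgNO3 (right) on the vertical axes against H2O on the horizontal axes, with equal shares on the dotted line. Filled points met the rule in that treatment (60 and 63 genes), open points in the other one alone (10 and 7), and all points lie below the line.

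SA and AgNO3 were also set against each other, although the values of both chose the genes, so that nothing is read from the count. Between the 2 treatments the switch rule called 2 of 1289 genes, or 0.155%, and none of the 68 switch genes that could be compared. The median of the largest shift in a gene was 6.19 points over these 68 genes and 1.59 points over all 1289.

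The 9 conditions that the choice of genes did not use show how the switch is spread over the hormone treatments. The share of the treatment-leading row had a median over the 70 genes of 75.0% in SA and 75.6% in AgNO3, and then of 67.2% in GA3, 59.3% in BR, 50.4% in NAA, 49.4% in JA, 37.1% in 2,4-D, 22.1% in ABA and 24.1% in 6-BA, against 28.2% in H2O. In gas it was 46.2% in 1-MCP, against 51.3% in ET-CK. The treatment-leading row led in 58 genes in GA3, 53 in BR, 41 in NAA, 35 in JA, 11 in 2,4-D, 3 in ABA and 3 in 6-BA, and in 33 genes in 1-MCP and 41 in ET-CK. The 9 conditions thus formed a gradation and not 2 sets. Between the quartiles, the shares ran from 51.8% to 77.4% in GA3, from 40.1% to 65.5% in NAA and from 11.0% to 29.1% in ABA. They ran from 16.9% to 32.5% in 6-BA and from 21.3% to 38.5% in H2O, so that the ranges of ABA, 6-BA and H2O overlapped in part. H2O was the condition in which all 70 genes were required to have the other row leading, so its own place in this order is not free. The place of SA and AgNO3 at the top is not free either, since the row was defined by its lead in them.

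**Figure D3:**
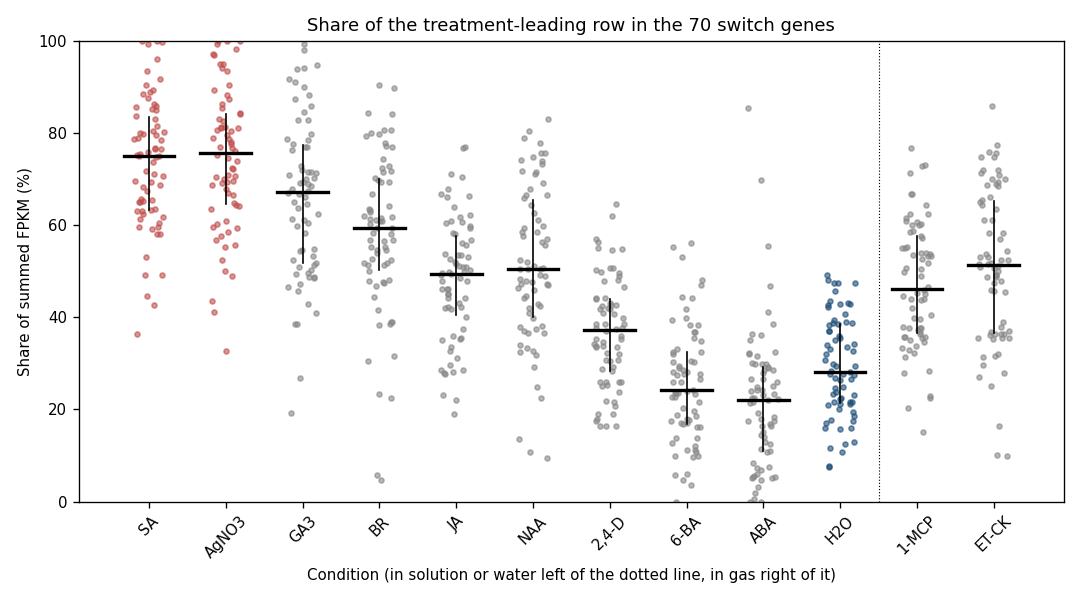
Share of summed FPKM carried by the treatment-leading row in each of the 70 genes (points), by condition, with the median (thick bar) and the quartiles (thin line). The medians are 75.0% in SA, 75.6% in AgNO3, 67.2% in GA3 and 59.3% in BR, and they are 24.1% in 6-BA, 22.1% in ABA and 28.2% in H2O.

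ABA and 6-BA lay beyond H2O in the majority of the genes. The share of the treatment-leading row was the lowest of the 12 conditions in ABA for 49 genes and in 6-BA for 14, and in H2O for 4. The water-leading row had a larger share than in H2O in 61 genes in ABA, 54 in 6-BA and 10 in 2,4-D, and in none in GA3. Its median share was 77.1% in ABA and 73.4% in 6-BA, against 70.3% in H2O. Such counts were not made over all compared genes, so they are not read as a trait of the switch genes. Between ABA and H2O the median of the largest shift was 9.6 points in the switch genes compared and 2.08 points in all genes compared. Between 6-BA and H2O it was 6.99 and 1.84 points. In LOC112179324 the treatment-leading row had 0.000616 FPKM in ABA, against 2.28 FPKM in H2O, with 18.5 FPKM of the water-leading row in ABA, against 11.1 FPKM in H2O. In LOC112196005 the treatment-leading row carried 6.82% of the sum in ABA, against 48.1% in H2O.

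Pairs of conditions that contain neither SA, AgNO3 nor H2O were compared with the same rule. These pairs were picked after the order of the conditions had been seen. Between GA3 and ABA, 62 of 747 genes, or 8.30%, met the rule, among them 38 of the 52 switch genes that could be compared (73.1%) and 24 of the 695 other genes (3.45%). Between BR and 6-BA, 38 of 823 genes, or 4.62%, met it, among them 25 of 50 switch genes and 13 of 773 others (1.68%). Between JA and ABA, 36 of 816 genes, or 4.41%, met it, among them 18 of 54 switch genes (33.3%) and 18 of 762 others (2.36%). Between GA3 and 6-BA, 6.32% of all genes and 40 of 61 switch genes met it. In each of these pairs the genes chosen in SA and AgNO3 met the rule at a larger share than the rest. The chosen genes also had more evenly divided rows from the start, with a median share of the leading row in H2O of 70.3%, against 94.1% in the 879 other genes that could have been chosen. The part of this difference in the shares of called genes was not tested.

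The shares of single genes in these pairs restate the order from which the pairs were picked and are given as a description. The share of the water-leading row was lower in GA3 than in ABA in 67 of the 70 genes, with a median difference of -43.9 points (from -78.9 to 16.8). It was lower in BR than in 6-BA in 68 genes, with a median difference of -33.1 points, and lower in JA than in ABA in 66 genes, with a median of -27.7 points. NAA and 2,4-D, both synthetic auxins, given here at the same dose of 100 µM, differed in these genes. The share of the water-leading row was lower in NAA than in 2,4-D in 63 genes, by a median difference of -12.7 points (from -42.2 to 11.4). The median share of the treatment-leading row of these auxins was 50.4% in NAA and 37.1% in 2,4-D. Both differ in structure, NAA with a naphthalene ring and 2,4-D with a chlorinated phenoxy ring, and the part of this in the difference was not tested. With 1 average for each no interval of the difference can be given, and this pair was not compared over all genes.

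Set against H2O, which also chose the genes, the same rule called 40 of 61 switch genes in GA3, where 5.56% of all compared genes were called, and 24 of 49 in BR (4.07% of all). It called 19 of 70 in NAA (2.73%), 9 of 59 in JA (1.47%), 3 of 59 in ABA (0.904%), none of 68 in 2,4-D (0.271%) and none of 67 in 6-BA (0.0886%). In gas it called 3 of 50 in 1-MCP (0.667%) and 7 of 48 in ET-CK (1.51%). These comparisons share the H2O average with the choice of the genes. With 6-BA in place of H2O, SA called 56 of 64 switch genes (9.02% of all) and AgNO3 59 of 63 (9.46% of all), which rest again on the SA and AgNO3 values that chose them.

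In the gas experiment, blocking ethylene perception by 1-MCP was compared with air. The rule called 2 of 1115 genes, or 0.179%, and 1 of 53 switch genes. The switch gene was LOC112201953, in which row 4 carried 62.3% of the sum in 1-MCP, against 28.0% in ET-CK. The median of the largest shift in a gene was 6.59 points in the 53 switch genes and 1.89 points in all 1115. Over the 70 genes the share of the water-leading row was higher in 1-MCP than in ET-CK in 47 genes and lower in 23, with a median difference of 3.70 points (from -25.6 to 28.7). AgNO3 and 1-MCP both act on ethylene perception, but AgNO3 was given in a solution and 1-MCP in gas, with different controls and doses. The median share of the treatment-leading row was 75.6% in AgNO3, against 28.2% in H2O, and 46.2% in 1-MCP, against 51.3% in ET-CK. AgNO3 and H2O values chose the genes and their rows, so the first of these differences is largely set by the rule. The second is not, and the sizes of the differences cannot be compared. Since the genes were chosen by their shares in H2O, the distance of ET-CK from H2O in them is not a result, and over all 862 genes compared between ET-CK and H2O the median of the largest shift was 2.59 points.

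The genes differed in how far the treatment-leading row extended to other conditions. In 7 genes it led in none of the 9 conditions that did not choose the genes. It led in 1 condition in 9 genes, in 2 in 6 genes, in 3 in 8 genes and in 4 in 4 genes. It led in 5 conditions in 14 genes, in 6 in 11 genes, in 7 in 8 genes, in 8 in 2 genes and in all 9 in 1 gene. The 7 genes with no further condition were LOC112167008, LOC112167882, LOC112171980, LOC112179599, LOC112187561, LOC112189969 and LOC112201605. LOC112187561 shows this pattern at a good level of expression. Its row 1 had 19.0 FPKM in SA and 17.8 FPKM in AgNO3, against 8.10 FPKM in H2O, and its row 2 had 12.4 FPKM in SA and 13.0 FPKM in AgNO3, against 35.6 FPKM in H2O. In GA3 its rows were almost even, with 20.7 FPKM of row 1 and 22.0 FPKM of row 2.

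At the other end, LOC112184294 (NC_037089.1, 73785595 to 73790808) was led by its row 2 in all conditions except H2O. Row 2 carried 74.7% of the sum in SA and 69.5% in AgNO3, against 38.8% in H2O, and between 48.0% and 77.8% in the other conditions. LOC112167782 (NC_037092.1, 6199168 to 6203221) was led by row 1 in 8 of the 9 conditions, and its rows were almost even in H2O, with 87.7 and 91.0 FPKM. In SA its row 1 had 175.6 FPKM and its row 2 had 12.4 FPKM. A switch of this gene from H2O thus started close to the point of equal rows, and only ABA, with 133.4 FPKM of row 2 and 93.4 FPKM of row 1, was clearly led by row 2.

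A few genes went against the common order. LOC112195385 (NC_037090.1, 8394158 to 8396925) had its highest share of the treatment-leading row in ABA, 85.4%, with 69.3% in SA and 81.2% in AgNO3, against 27.6% in H2O. LOC112165372 (NC_037092.1, 5480552 to 5484113) had 55.4% in ABA, 59.7% in SA and 55.6% in AgNO3, against 24.8% in H2O, and 22.4% in BR. In LOC112174128 (NC_037093.1, 19270838 to 19275395) the treatment-leading row carried 62.3% in SA, 68.8% in AgNO3 and 70.1% in GA3, but 4.75% in BR, against 27.7% in H2O. This row had 0.205 FPKM in BR and 0.648 FPKM in ET-CK, against 3.18 FPKM in H2O. In LOC112193487 the range was the widest of the genes named here, with 99.9% in SA and AgNO3 and 0.636% in ABA, against 47.5% in H2O.

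**Figure D4:**
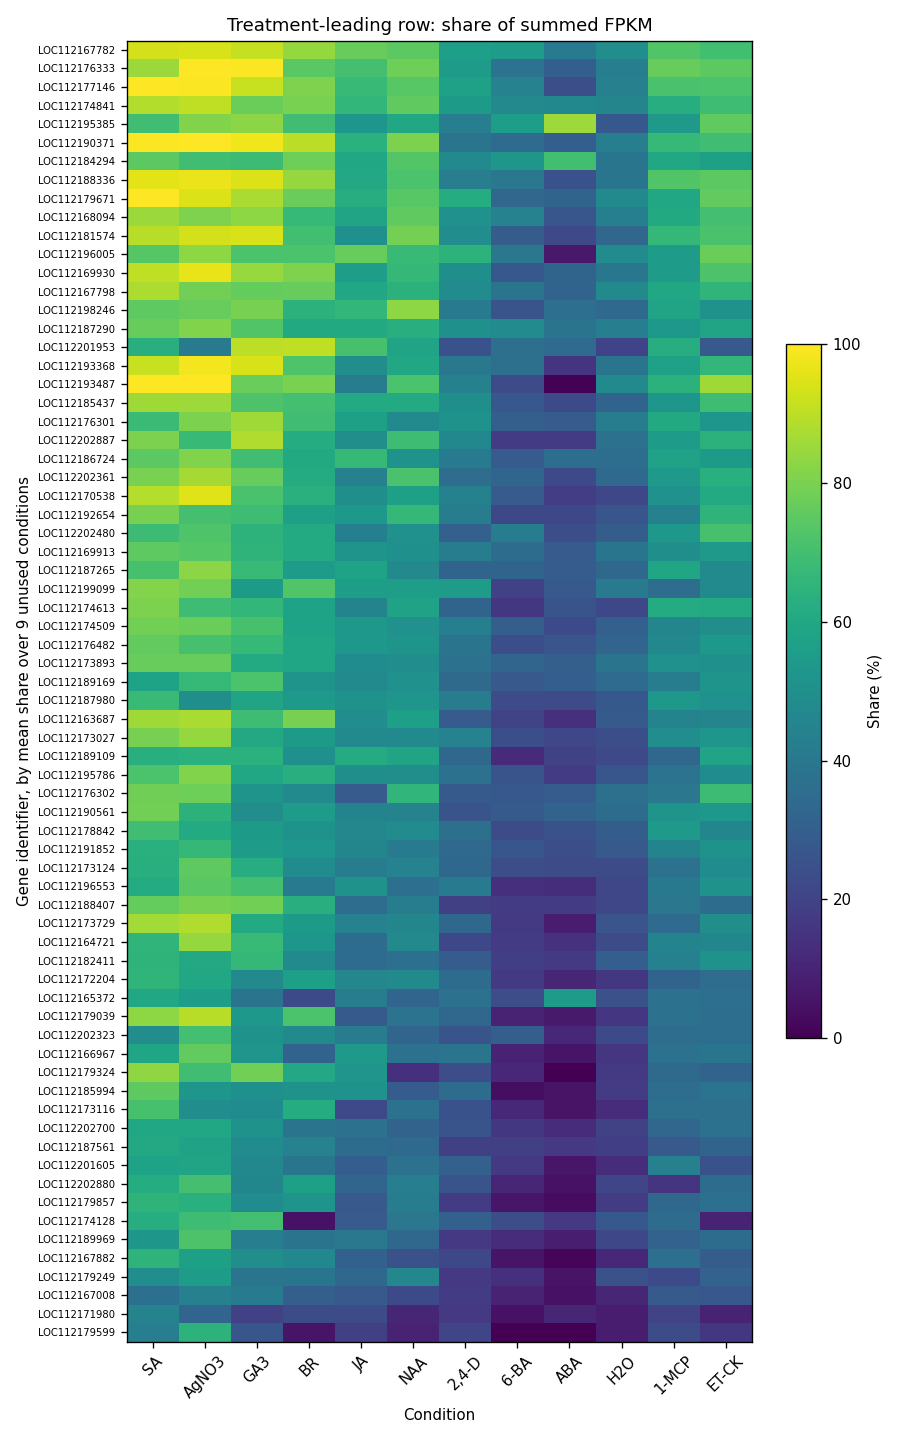
Share of summed FPKM carried by the treatment-leading row (colour, 0 to 100%) in each of the 70 genes (lines, ordered by the mean over the 9 conditions that did not choose them) and 12 conditions (columns). The columns of SA, AgNO3 and GA3 are mostly light and those of 6-BA, ABA and H2O mostly dark, with LOC112195385 at 85.4% in ABA and LOC112174128 at 4.75% in BR as exceptions.

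Some measures of the whole table differed between the conditions at the ends of the order. The FPKM summed over all rows was 749755 in SA and 762468 in AgNO3, against 897264 in H2O, and ranged from 744948 in ET-CK to 962395 in ABA. The number of rows of at least 1 FPKM was 14932 in SA and 14931 in AgNO3, against 14082 in H2O, with 14005 in ABA and 14087 in 6-BA. SA and AgNO3 thus had the most rows above 1 FPKM, and H2O, 6-BA and ABA the fewest. The conditions between them kept the order only in part. GA3, BR, NAA and 1-MCP had totals of 805114, 827234, 810567 and 820598, between those of AgNO3 and H2O. JA and 2,4-D had totals of 899680 and 921727, above that of H2O, and GA3 had 14635 rows of at least 1 FPKM, fewer than JA with 14639, NAA with 14741, 1-MCP with 14731 and ET-CK with 14797. The part of these measures in the switch was not tested.

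**Figure D5:**
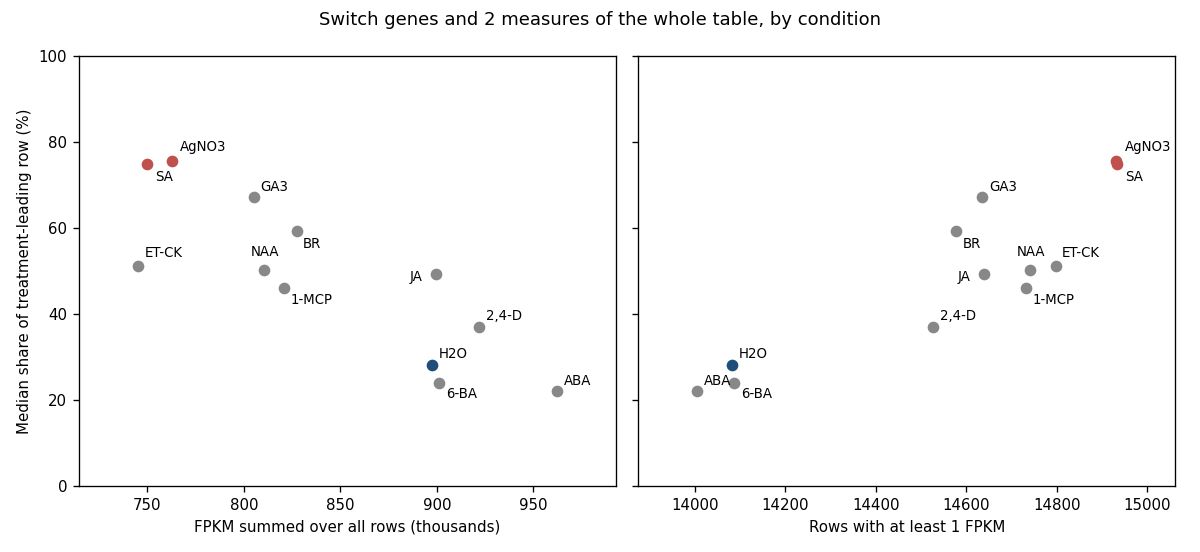
Median share of the treatment-leading row over the 70 genes (vertical axis, %) against the FPKM summed over all rows (left) and the number of rows of at least 1 FPKM (right), 1 point per condition. SA and AgNO3 (red) have 14932 and 14931 rows above 1 FPKM and H2O (blue) has 14082.

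The switch genes had few features in common beyond the rule. They had 178 rows in all, 47 genes with 2 rows, 16 with 3 and 7 with 4 or more, and 19 rows stayed under 1 FPKM in all conditions. Of the switch genes 67.1% had 2 rows, against 73.3% of the 949 genes from which they were chosen. Their loci had a median length of 5250 bases, against 4654 bases, and the summed FPKM in H2O had a median of 21.2, against 25.1. A locus shared with other identifiers was found for 7 of the 70 switch genes, against 147 of the 949 (15.5%). On such loci, reads of neighbouring genes could have been divided among rows of different identifiers. Of the 70 genes, 53 had sums of at least 10 FPKM in all 12 conditions. The genes lay on 7 chromosomes, 16 of them on NC_037092.1, which holds 22.9% of the switch genes, against 16.5% of the 949, and 5 on NC_037091.1, with 7.14%, against 13.0%. The order of the rows in the list gave no rule, since the water-leading row was the first in 26 of the genes.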

How the data were processed

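Petal RNA of 39 libraries was sequenced by the authors, who mapped the reads to RchiOBHm-V2 with TopHat2 2.1.1, assembled transcripts with Cufflinks 2.2.0 and obtained FPKM with Cuffdiff. For each condition and transcript row, the deposited value is 1 average FPKM over the replicates. The normalization between conditions was not given in the sources used here. The study gives the reads of each library, but the averages carry no read counts, so no counting error could be attached to a value.

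Rows were kept apart and matched by their place, since identifiers, loci and order are equal in all tables. Shares are percentages of a gene's summed FPKM. The genes and lists were chosen with earlier results of these data known. The genes named were the 15 with the largest mean shift in both treatments, up to 8 in each treatment alone and those beside the limit of the shift. Others were chosen after their values were seen. Planned lists of splicing, clock, SA and ethylene genes and of petal markers could not be matched to identifiers. The rule was tested on simulated data, in which the leading row and the next one were exchanged in genes well above the minimum sum. That test cannot show how the rule behaves under the spread between replicates or near its limits. Other minima, limits, scalings and a pseudocount of 1 FPKM were tried. Python 3.11.15, numpy 2.4.6, pandas 2.3.3 and matplotlib 3.10.9 were used.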

Additional observations from a re-analysis of the deposited data

How the results depend on the processing

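The count of switch genes depended most on the minimum of the summed FPKM. With a minimum of 20, which admits fewer genes, 32 genes met the rule in SA, 31 in AgNO3, 35 in either and 28 in both, and 0 between 1-MCP and ET-CK. With no minimum the counts were 296 in SA, 291 in AgNO3, 416 in either and 171 in both, and 172 between 1-MCP and ET-CK. With the stricter limit tried on the ratio of sums, 41 genes met the rule in AgNO3 and 30 in both treatments, and with the limit at 2 it was met by 80 in both. A minimal shift of 0.4 left 34 genes in both treatments and 0 between 1-MCP and ET-CK, and a minimal shift of 0.2 gave 5 in the gas comparison. A pseudocount of 1 FPKM on each row gave 1 gene there. The other counts under these settings, scaling by medians and leaving out joined names, genes on several loci or rows listed at 0 stayed within 1.5 times. A similar count need not mean the same genes. With the pseudocount, 94 genes met the rule in either treatment, among them 68 of the 70 switch genes. Of 45 shifts of the genes named, 45 stayed at 30 points or more after scaling by medians and 43 with the pseudocount, which took LOC112184294 to 25.9 points and LOC112189969 to 26.9 points in SA. With 6-BA in place of H2O, an alternative chosen after seeing the data, 80 genes met the rule in SA, 87 in AgNO3 and 74 in both. The 93 genes that met it in either treatment included 63 of the 70 switch genes. No paired analysis was possible because the averages carry no replicate numbers, and no replicate could be left out for the same reason.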

Other observations

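In a further set of genes the division among transcript rows differed while the same row led. In SA a share shifted by at least 30 points in 107 of the 882 genes compared, of which 60 also had another leading row. In AgNO3 it did in 103 of 893 genes, of which 63 had another leading row. Outside the 70 switch genes, LOC112167010 was the other gene that met the whole rule between 1-MCP and ET-CK. With no limit on the sums or the shift, the leading row differed between these gases in 12 of the 70 switch genes. The same count over all genes was not made, so nothing is read from it. The median share of the water-leading row in the switch genes was 49.9% in 1-MCP and 47.2% in ET-CK, where small differences can change the leading row. Row 1 of LOC112167010 carried 61.6% of the sum in 1-MCP, against 25.0% in ET-CK. The same row carried 21.9% in SA and 7.01% in AgNO3, against 55.0% in H2O.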
